A study of Mus musculus with 6 samples.

Results

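The cytochrome P450 genes of the mouse kidney are described here in nephrectomised mice given D-serine or vehicle. Members were the rows whose gene symbol begins with Cyp followed by a digit, leaving out Cyp4b1, Cyp7b1, Cyp24a1 and Cyp27b1, a rule that itself uses names and no measured values. This gave 101 of the 24346 genes, 4 of them named as pseudogenes. Cyp2d13 is also annotated as a pseudogene, and Cyp4x1os as an antisense gene. RNA-seq of kidney messenger RNA was available for 6 libraries, 3 labelled vehicle and 3 labelled D-serine. Mice of both groups had a serine-free diet for 1 week and unilateral nephrectomy (UNX), the surgical removal of 1 kidney, and were killed 2 days after the operation. The D-serine group drank water with 0.1% D-serine, the mirror-image form of L-serine, and the vehicle group drank water without it. Time on the water was 1 week in both groups. Strain, sex and age are not given in the labels, which also do not say whether each library came from its own mouse. The p-values therefore measure only the spread between these libraries, which may be technical. Sham-operated mice were not analysed here.

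Cytochrome P450 enzymes are haem proteins that insert an oxygen atom into their substrates, with electrons passed to them by a reductase in the endoplasmic reticulum or by ferredoxin in mitochondria. In the kidney, family 4 enzymes hydroxylate the far end of fatty acids and turn arachidonic acid into the vasoactive lipid HETE, while subfamilies 2c and 2j make epoxides from the same substrate. Other members oxidise foreign compounds, steroids, sterols, vitamin D or retinoic acid. Several mouse kidney P450 genes, among them Cyp2e1, Cyp4a12a and Cyp2j13, are known to be more active in males and to depend on androgen.

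Values are FPKM, the number of fragments of a gene scaled by transcript length and by the mapped fragments of the library, so levels can be set side by side between genes. A rough depth, read from the spacing of low values, was 7420000 to 8920000 fragments per library, at which 1 FPKM of a 2000-base transcript stood for 14.8 to 17.8 fragments. The proximal tubule phosphate carrier Slc34a1 stood at 2026 to 2590 FPKM in every library, as fits the kidney label. Markers of the last part of the proximal tubule, segment S3, were lower on D-serine for 8 of 8 genes, Slc5a1 by a log2 difference of only -0.02. In 6 of the 8 all 3 D-serine libraries lay below all 3 vehicle libraries. Of all genes averaging 1 FPKM or more, 51.1% were lower and 19.4% lay below in this way. The mean log2(FPKM + 1) of this list was 6.74, 6.79 and 6.55 on vehicle and 5.48, 5.41 and 6.17 on D-serine. Markers of segments S1 and S2 were lower for 11 of 12 genes, with list means of 6.92 to 7.6 and 6.71 to 7.43 that overlapped between groups. Collecting duct markers were higher for 7 of 7 genes, with means of 5.49 to 5.82 and 5.89 to 6.32. In such whole-tissue libraries, fewer cells of a type and less RNA per cell cannot be told apart.

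The members with the lowest D-serine values relative to vehicle included close copies, so the sequences that separate the copies and the stretches before the start of the abundant genes are shown first. Cyp4a12a (chr4:115299046-115332815, plus strand, mm10, GENCODE M21) and Cyp4a12b (chr4:115411624-115439034, plus strand) had coding sequences of 1524 bases that were 98.5% identical. The windows below cover coding positions 624 to 683, counted from the A of the start codon, and were chosen as a stretch of 60 bases that holds 4 differences. Capitals mark the bases that differ.

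Cyp4a12a: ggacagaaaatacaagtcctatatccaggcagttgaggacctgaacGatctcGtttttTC

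Cyp4a12b: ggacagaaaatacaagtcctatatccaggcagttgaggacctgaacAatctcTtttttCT

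Cyp2a4 (chr7:26307169-26315088, plus strand) and Cyp2a5 (chr7:26835305-26843548, plus strand) had coding sequences of 1482 bases that were 98.4% identical. Coding positions 596 to 655 are shown in the same way, with 4 differences in capitals.

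Cyp2a4: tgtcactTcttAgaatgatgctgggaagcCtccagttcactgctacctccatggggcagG

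Cyp2a5: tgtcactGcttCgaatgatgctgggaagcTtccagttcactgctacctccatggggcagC

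A read can be assigned to 1 gene of such a pair only where it crosses a difference. Of the 50-base windows of the coding sequence, 45.2% were found in no transcript of another Cyp gene for Cyp4a12a and likewise 45.2% for Cyp4a12b. The shares were 59.5% for Cyp2a4 and 48.4% for Cyp2a5, against 99.7% for Cyp2j5, and every such window of Cyp2e1 was found in no other. The split of reads within these pairs is therefore less certain than their sum.

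The 250 bases before the RefSeq start site (GRCm38.p6) follow for Cyp2e1, Cyp2j5, Cyp2j11, Cyp2j13 and Cyp2a4, abundant members whose groups did not overlap, with Cyp2a5 as the partner of Cyp2a4. Each is written 5′ to 3′ on the strand of its gene. Cyp51, also abundant and without overlap, had a promoter entry as well but is not shown. Capitals mark matches, on either strand, to the motifs searched. These were the CCAAT box, a TATA box of the letters TATAAA, a GC box GGGCGG, an HNF1 half-site GTTAAT and an HNF4 core CAAAGTCCA. An androgen receptor half-site AGAACA, a STAT5 element TTCNNNGAA, a sterol response element TCACNCCAC and the DR1 repeat were searched as well. The half-sites are parts of longer elements that were not searched. The DR1 repeat is AGGTCA repeated with any 1 base between.

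Cyp2e1 (chr7:140763569-140763818, plus strand): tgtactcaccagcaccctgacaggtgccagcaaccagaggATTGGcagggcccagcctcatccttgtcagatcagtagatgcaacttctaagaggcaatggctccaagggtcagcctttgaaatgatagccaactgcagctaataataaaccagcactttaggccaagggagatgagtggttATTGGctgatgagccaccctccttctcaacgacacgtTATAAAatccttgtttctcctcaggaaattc

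Cyp2j5 (chr4:96664120-96664369, minus strand): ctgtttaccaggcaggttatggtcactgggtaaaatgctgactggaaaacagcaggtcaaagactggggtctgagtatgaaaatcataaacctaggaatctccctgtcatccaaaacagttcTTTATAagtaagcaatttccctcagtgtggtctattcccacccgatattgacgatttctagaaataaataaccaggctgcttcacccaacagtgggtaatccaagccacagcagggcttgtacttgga

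Cyp2j11 (chr4:96348681-96348930, minus strand): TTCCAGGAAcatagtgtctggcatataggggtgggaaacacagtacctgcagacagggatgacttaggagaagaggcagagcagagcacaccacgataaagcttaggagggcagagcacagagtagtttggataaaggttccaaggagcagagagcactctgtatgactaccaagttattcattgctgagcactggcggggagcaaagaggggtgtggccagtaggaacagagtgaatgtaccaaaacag

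Cyp2j13 (chr4:96077541-96077790, minus strand, the first of its RefSeq starts): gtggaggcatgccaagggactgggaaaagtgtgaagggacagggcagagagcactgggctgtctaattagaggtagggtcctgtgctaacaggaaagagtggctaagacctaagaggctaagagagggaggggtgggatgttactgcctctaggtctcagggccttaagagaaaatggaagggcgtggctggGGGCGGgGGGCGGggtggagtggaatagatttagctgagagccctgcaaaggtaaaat

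Cyp2a4 (chr7:26306942-26307191, plus strand): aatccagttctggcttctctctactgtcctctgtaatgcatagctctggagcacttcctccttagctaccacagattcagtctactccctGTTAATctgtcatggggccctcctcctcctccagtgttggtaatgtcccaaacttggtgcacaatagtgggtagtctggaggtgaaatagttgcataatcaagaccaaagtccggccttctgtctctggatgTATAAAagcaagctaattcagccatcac

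Cyp2a5 (chr7:26835089-26835338, plus strand): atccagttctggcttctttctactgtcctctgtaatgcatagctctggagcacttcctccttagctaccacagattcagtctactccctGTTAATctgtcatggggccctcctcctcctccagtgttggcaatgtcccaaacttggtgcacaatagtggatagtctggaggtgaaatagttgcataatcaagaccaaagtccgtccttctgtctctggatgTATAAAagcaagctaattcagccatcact

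The Cyp2a4 and Cyp2a5 windows were 97.6% identical, and both held an HNF1 half-site and a TATA box. The TATA box lay 28 bases before the start in Cyp2a4 and 29 in Cyp2a5. Cyp2e1 held a TATA box 31 bases before its start and CCAAT on the opposite strand at 68 and 210 bases. The Cyp2j windows shared no motif: Cyp2j5 held TATAAA on the opposite strand at 128 bases, Cyp2j11 a STAT5 element at 250 bases and Cyp2j13 a pair of GC boxes at 58 and 51 bases. Among all 32851 promoter windows of this length, 12.4% held TATAAA, 33.8% CCAAT, 32.7% GGGCGG, 6.43% GTTAAT, 7.02% TTCNNNGAA and 16.1% AGAACA. Of the 20 tested members with an entry, 7 held TATAAA, 9 CCAAT, 8 GGGCGG, 4 GTTAAT, 2 TTCNNNGAA and 3 AGAACA. A member with several starts counted if any of its windows held the motif, whereas the percentages are per window, so the 2 are not on the same footing. The HNF4 core, the sterol response element and the DR1 repeat were held by 0 of these 20 members and by 0.384%, 1.05% and 0.0335% of all windows. Cyp4a10, Cyp4a12a, Cyp4a12b and Cyp4a14 had no promoter entry, so these counts do not cover them. No 2 matches overlapped in the windows shown, and a match describes letters only.

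Of the 101 members, 32 averaged 1 FPKM or more and were tested, 36 lay above 0 in some library but under that level, and 33 were listed at 0 in all 6. The lowest tested member, Cyp2u1, had a mean of 1.16 FPKM and the highest untested member had 0.861. Members of the vehicle libraries summed to 4056, 4613 and 4649 FPKM and those of the D-serine libraries to 2964, 2523 and 3862 FPKM. The sum over members was lower in every D-serine library than in every vehicle library. Group means were 4440 ± 332 FPKM on vehicle and 3116 ± 682 FPKM on D-serine (SD, n = 3 each), a ratio of 0.702. The P450 genes left out by the rule are not in these sums. Cyp2e1 alone made up 49.97, 50.5 and 46.8% of the sum on vehicle and 44.1, 38.9 and 40.8% on D-serine. Without Cyp2e1 the sums were 2262 ± 222 and 1829 ± 401 FPKM, and the groups overlapped. D-serine replicate 3 had the highest sum of its group, and its S3 marker mean was the highest of its group as well.

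**Figure D1:**
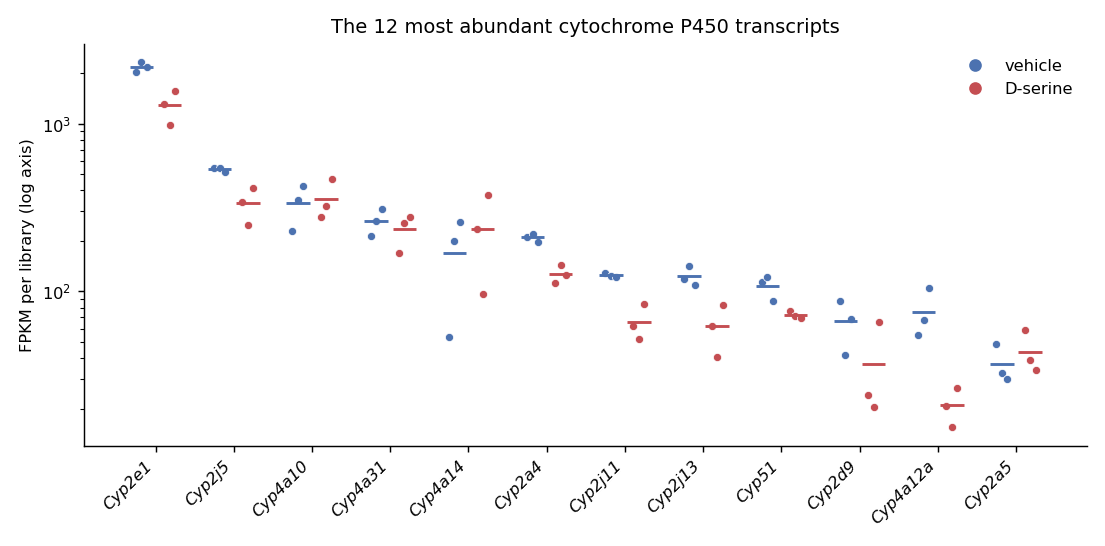
FPKM per library (log axis) of the 12 most abundant cytochrome P450 members, with points for single libraries and lines for group means, n = 3 each. Cyp2e1, at 981 to 2328 FPKM, stood above every other member, and 7 of the 12 genes had all D-serine points below all vehicle points, where 25.0% of all genes averaging 40 FPKM or more did. That level of 40 FPKM was not planned.

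D-serine and vehicle were compared gene by gene on log2(FPKM + 1) over all 11737 genes that averaged 1 FPKM or more, using limma and Benjamini-Hochberg adjustment with a threshold of 0.05. In this fit 0 of 32 members passed the threshold, and 9 of all genes tested did (0.0767%). At an unadjusted limma p under 0.05, 8 members were lower and 4 were higher on D-serine, against 14.6% and 13.1% of all genes tested. An adjusted limma p under 0.1 was reached by 8 of 32 members and by 11.2% of all genes, and the smallest of the members was 0.0572. Of the tested members, 17 were lower and 15 higher, with a median log2 difference of -0.11 against -0.0078 over all genes tested. All 3 D-serine libraries lay below all 3 vehicle libraries for 9 members (28.1%), against 19.4% of all genes tested, and above them for 4 members (12.5%), against 16.5%. Among the 12 members with a mean of at least 40 FPKM, 7 lay below and 0 above, where 25.0% and 20.9% of all genes of that level did. The level of 40 FPKM was not planned. Among the 19 members with a mean of at least 10 FPKM, the same 7 lay below and Cyp2j6 lay above. The share of all genes at 10 FPKM was not computed. When 102 small RNA genes were left out of the fit, 333 of 11635 genes passed (2.86%), and 3 members were among them: Cyp2a4, Cyp2j11 and Cyp4a12a. With D-serine replicate 3 also left out, 9 members passed, of 1109 among 11635 genes in all. With any 1 of the other 5 libraries left out instead, 0 members passed. In the fit with small RNA genes, leaving out D-serine replicate 3 gave 7 members that passed (Cyp2a4, Cyp2e1, Cyp2j5, Cyp2j11, Cyp2j13 and Cyp4a12a lower, Cyp2s1 higher) of 437 genes in all, and leaving out any other library gave 0 members. An exact permutation test of 3 against 3 libraries cannot give a two-sided p below 0.1.

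**Figure D2:**
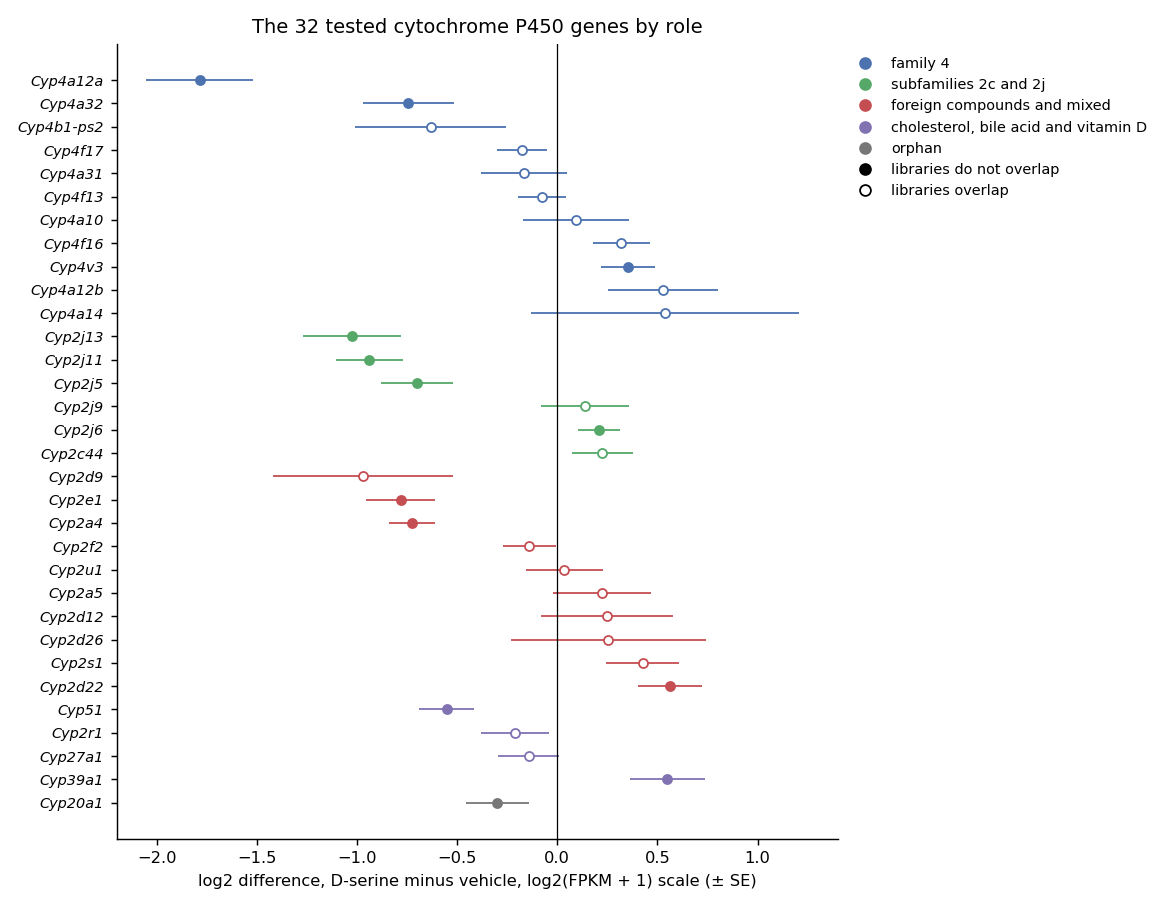
Log2 difference, D-serine minus vehicle on the log2(FPKM + 1) scale, of the 32 tested members with its standard error, coloured by role. Filled points mark members whose libraries did not overlap between groups, 9 on the lower side and 4 on the higher side. These shares of 28.1% and 12.5% stand against 19.4% and 16.5% of all genes tested.

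Family 4, whose enzymes hydroxylate fatty acids, had 22 members, counting the pseudogenes Cyp4b1-ps2 and Cyp4f41-ps and the antisense gene Cyp4x1os. Of these, 11 were tested, Cyp4b1-ps2 among them, and 6 were lower and 5 higher and 0 passed the threshold. Cyp4a12a, the enzyme known as the androgen-dependent source of HETE in the mouse kidney, stood at 55.2, 67.4 and 105 FPKM on vehicle and at 20.8, 15.4 and 26.6 FPKM on D-serine. The groups were far apart, with the highest D-serine library under the lowest vehicle library. Its mean ratio of 0.277 was the lowest of the 32 members, and its log2 difference was -1.79 ± 0.27 (SE; limma adjusted p = 0.0572, and 0.0381 with small RNA genes left out). Its near copy Cyp4a12b was less abundant, at 4.12, 6.75 and 8.85 FPKM on vehicle and 10.8, 6.77 and 11.7 FPKM on D-serine. The D-serine libraries of Cyp4a12b overlapped those of vehicle (log2 difference 0.53 ± 0.27, limma adjusted p = 0.247). Cyp4a12a made up 93.1, 90.9 and 92.2% of the sum of the pair on vehicle and 65.8, 69.5 and 69.5% on D-serine, so the shares of the groups did not overlap. Summed before the fit, the pair stood at 59.4, 74.2 and 113 FPKM on vehicle and at 31.7, 22.2 and 38.3 FPKM on D-serine. The sum was lower in every D-serine library, with a log2 difference of -1.37 ± 0.27 (limma adjusted p = 0.0641).

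The neighbouring Cyp4a10, Cyp4a31 and Cyp4a14 were more abundant than Cyp4a12a, and their groups overlapped. Cyp4a10, a fatty acid hydroxylase known as a target of the lipid receptor PPAR alpha, stood at 229, 353 and 424 FPKM on vehicle and at 277, 323 and 466 FPKM on D-serine. Its log2 difference of 0.09 ± 0.27 turned to -0.16 without vehicle replicate 1 and to -0.12 without D-serine replicate 3 (limma adjusted p = 0.836 with all libraries). Cyp4a14, another such target, varied widely within groups, at 53.7, 199 and 259 FPKM on vehicle and 234, 96.8 and 376 FPKM on D-serine. Its difference of 0.54 ± 0.67 turned to -0.15 without vehicle replicate 1, the library with the lowest value. Cyp4a31 stood at 213, 263 and 310 FPKM on vehicle and at 170, 257 and 279 FPKM on D-serine, a difference of -0.17 ± 0.21 that turned to 0.050 without D-serine replicate 1. Cyp4a32, at 4.59, 4.81 and 6.47 FPKM on vehicle and 1.74, 2.82 and 3.94 FPKM on D-serine, had all D-serine libraries lower (log2 difference -0.74 ± 0.23, limma adjusted p = 0.104). The coding sequence of Cyp4a32 was 97.2% identical to that of Cyp4a10 and 96.0% to that of Cyp4a31, so its low values depend on how reads were split among them.

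Cyp4v3, a fatty acid hydroxylase whose human counterpart is mutated in a crystalline disease of the retina, was at 1.36, 1.55 and 1.47 FPKM on vehicle and 1.96, 2.56 and 1.94 FPKM on D-serine. All of its D-serine libraries were higher, with a log2 difference of 0.35 ± 0.14 (limma adjusted p = 0.149). Cyp4f16 was at 2.81, 3.0 and 2.58 FPKM on vehicle and at 4.24, 4.14 and 2.94 FPKM on D-serine, where only replicate 3 lay within the vehicle range (log2 difference 0.32 ± 0.14). Cyp4f13 and Cyp4f17 differed by -0.08 and -0.17 with overlapping libraries. The pseudogene Cyp4b1-ps2, at 0.711 to 5.06 FPKM over the 6 libraries, may share reads with Cyp4b1 and is uncertain.

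Of the 23 members of subfamilies 2c and 2j, 6 were tested, 5 of them among the 7 Cyp2j members, which form a cluster on chromosome 4. Cyp2j5 (chr4:96628773-96664154, minus strand), an abundant epoxygenase of the renal proximal tubule, stood at 545, 542 and 516 FPKM on vehicle and at 342, 249 and 416 FPKM on D-serine. All D-serine libraries were lower, replicate 2 the lowest, and the log2 difference was -0.70 ± 0.18 (limma adjusted p = 0.0817). Cyp2j11 (chr4:96294508-96348662, minus strand) varied little among vehicle libraries, at 128, 124 and 122 FPKM, and stood at 62.0, 51.9 and 83.7 FPKM on D-serine. Its ratio of means was 0.528 and its log2 difference -0.94 ± 0.17 (limma adjusted p = 0.0583, and 0.0385 with small RNA genes left out). Cyp2j13 (chr4:96027534-96077546, minus strand), known as a male-biased kidney gene, was at 118, 142 and 109 FPKM on vehicle and 62.1, 40.9 and 83.2 FPKM on D-serine. Its groups did not overlap either, and its log2 difference was -1.03 ± 0.24 (limma adjusted p = 0.0773). D-serine replicate 2 was the lowest and D-serine replicate 3 the highest of its group for all 3 of these genes.

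Genes of the same cluster that lay between them did not share this pattern of values. Cyp2j6, between Cyp2j11 and Cyp2j5, was at 17.7, 17.7 and 18.7 FPKM on vehicle and at 19.96, 23.7 and 19.5 FPKM on D-serine, all D-serine libraries being higher (log2 difference 0.21 ± 0.10, limma adjusted p = 0.227). Cyp2j9 overlapped between groups, with a log2 difference of 0.14 ± 0.22. Cyp2j12 and Cyp2j8 stayed under the level for testing, with highest single libraries of 0.0729 and 0.675 FPKM. The difference between neighbouring genes was not itself tested. Of the 16 Cyp2c genes 11 were listed at 0 in all libraries and 1 was tested. That gene, Cyp2c44 (Cyp2c23 in RefSeq), is regarded as the main arachidonic acid epoxygenase of the mouse kidney, and it stood at 16.6, 11.7 and 16.3 FPKM on vehicle and 15.3, 19.03 and 17.9 FPKM on D-serine. Its libraries overlapped, with a log2 difference of 0.23 ± 0.15 (limma adjusted p = 0.364).

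**Figure D3:**
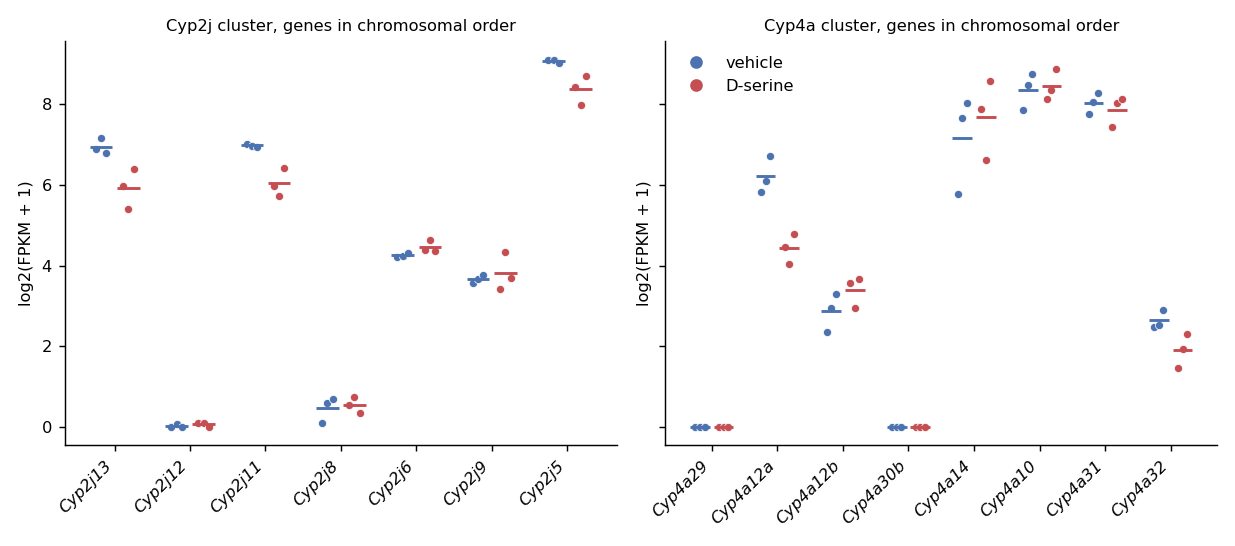
Log2(FPKM + 1) per library of the Cyp2j and Cyp4a genes in their order along chromosome 4, with lines for group means, n = 3 each. Cyp2j13, Cyp2j11 and Cyp2j5 had all D-serine points below vehicle while Cyp2j6 between them had all above. Cyp4a12a and the less abundant Cyp4a32 also had all D-serine points below, where Cyp4a12b, Cyp4a14, Cyp4a10 and Cyp4a31 overlapped.

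The group of foreign-compound and mixed enzymes had 39 members, of which 10 were tested, 4 lower and 6 higher on D-serine. Cyp2e1 (chr7:140763739-140774987, plus strand), which oxidises ethanol, acetone and small solvents, was the most abundant member at 2027, 2328 and 2177 FPKM on vehicle. It stood at 1307, 981 and 1574 FPKM on D-serine. All D-serine libraries were lower, the means being 2177 ± 151 and 1287 ± 297 FPKM and the log2 difference -0.78 ± 0.17 (limma adjusted p = 0.0710). Its group means lay 890.2 FPKM apart, against 1323 FPKM between the group means of the sum over all members.

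Cyp2a4, a testosterone hydroxylase, stood at 212, 221 and 197 FPKM on vehicle and at 112, 144 and 126 FPKM on D-serine. The groups were well apart and its log2 difference was -0.72 ± 0.11 (limma adjusted p = 0.0576, and 0.0385 with small RNA genes left out). Its near copy Cyp2a5, a coumarin hydroxylase, was at 48.8, 32.7 and 29.9 FPKM on vehicle and 58.5, 38.7 and 34.0 FPKM on D-serine, so that its groups overlapped (log2 difference 0.23 ± 0.24, limma adjusted p = 0.566). Cyp2a4 made up 81.3, 87.1 and 86.8% of the pair's sum on vehicle and 65.8, 78.8 and 78.7% on D-serine. The pair summed to 261, 254 and 227 FPKM on vehicle and to 171, 182 and 160 FPKM on D-serine. As for the Cyp4a12 pair, the sum was lower in every D-serine library and by less than the more abundant copy alone (log2 difference -0.53 ± 0.10, limma adjusted p = 0.0618).

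**Figure D4:**
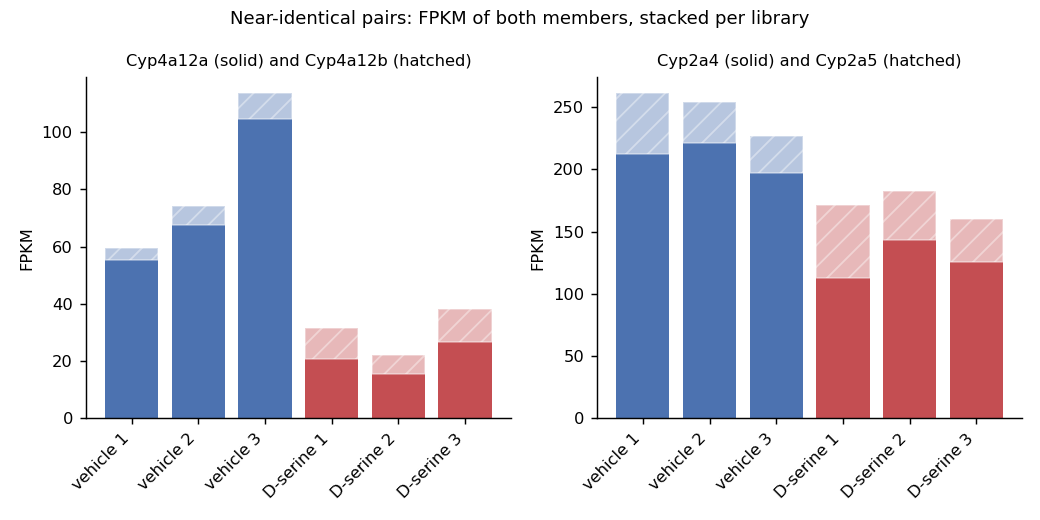
FPKM of the near-identical pairs Cyp4a12a and Cyp4a12b (left) and Cyp2a4 and Cyp2a5 (right), stacked per library, with bars starting at 0. Both sums were lower in each D-serine library, at 22.2 to 38.3 against 59.4 to 113 FPKM and at 160 to 182 against 227 to 261 FPKM.

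Cyp2d9, known in mouse liver as a male-specific testosterone hydroxylase, was at 88.3, 42.0 and 68.6 FPKM on vehicle and at 24.0, 20.4 and 65.6 FPKM on D-serine. Only D-serine replicate 3 reached into the vehicle range, and the log2 difference was -0.97 ± 0.45 (limma adjusted p = 0.206). Its coding sequence was 92.1% identical to that of Cyp2d12, which stood at 30.1, 14.9 and 42.4 FPKM on vehicle and 29.3, 31.7 and 35.3 FPKM on D-serine. The Cyp2d12 difference of 0.25 ± 0.33 turned to -0.16 without vehicle replicate 2. Of the other close copies of Cyp2d9, Cyp2d10 had 0.163 FPKM in its highest library and Cyp2d11 was listed at 0. Cyp2d22, often taken as the mouse counterpart of human CYP2D6, was at 6.54, 6.37 and 8.88 FPKM on vehicle and 12.6, 9.21 and 11.8 FPKM on D-serine. All of its D-serine libraries were higher, and its log2 difference was 0.56 ± 0.16 (limma adjusted p = 0.0952). Cyp2s1, an epithelial enzyme, was at 7.11, 8.78 and 7.98 FPKM on vehicle and 13, 12.6 and 8.06 FPKM on D-serine, of which replicate 3 lay among the vehicle values (log2 difference 0.43 ± 0.18, limma adjusted p = 0.178). The other 3 tested genes of the group, Cyp2d26, Cyp2f2 and Cyp2u1, overlapped between groups with log2 differences of 0.26, -0.14 and 0.03. None of the 9 Cyp3a genes, the leading drug-oxidising subfamily of liver, reached the level for testing, and 5 were listed at 0.

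Of the 7 members that act on cholesterol, bile acids and vitamin D, 4 were tested. Cyp51 (chr5:4081145-4104746, minus strand), the lanosterol demethylase of cholesterol synthesis, stood at 113, 123 and 87.3 FPKM on vehicle and at 76.8, 71.4 and 69.5 FPKM on D-serine. All D-serine libraries were lower and lay close together, with a log2 difference of -0.55 ± 0.14 (limma adjusted p = 0.0801). Cyp39a1, an oxysterol hydroxylase of bile acid synthesis, was at 2.23, 3.06 and 1.70 FPKM on vehicle and 4.66, 3.18 and 3.69 FPKM on D-serine. Its D-serine libraries were all higher, D-serine replicate 2 only just so (log2 difference 0.55 ± 0.19, limma adjusted p = 0.121). Cyp27a1, the mitochondrial sterol hydroxylase, and Cyp2r1, a vitamin D hydroxylase, differed by -0.14 ± 0.15 and -0.21 ± 0.17 with overlapping libraries. The orphan enzyme Cyp20a1 was at 4.42, 4.72 and 4.81 FPKM on vehicle and 4.31, 2.64 and 3.99 FPKM on D-serine, all D-serine libraries being lower (log2 difference -0.30 ± 0.16, limma adjusted p = 0.248).

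None of the 6 members of steroid hormone synthesis was tested. Cyp11b1, Cyp11b2 and Cyp19a1 were listed at 0 in all 6 libraries, and the highest value of the others was 0.310 FPKM, for Cyp17a1 in D-serine replicate 2. Of 7 adrenal cortex markers, Mc2r, Nr5a1, Mrap and Hsd3b1 had 0.261 FPKM as their highest value, and Star, Akr1b7 and Scarb1, of which kidney also holds some, reached 1.10, 7.43 and 5.53 FPKM.

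The genes that supply P450 enzymes with electrons, haem and transcriptional control were read from the same fit, as were their eicosanoid partners. In limma 0 genes of these 4 lists passed the adjusted threshold, and at an unadjusted p under 0.05, 12 of 44 tested genes were lower (27.3%) and 6 higher (13.6%), against 14.6% and 13.1% of all genes tested. The counts below and above vehicle that follow stand against 19.4% and 16.5% of all genes. Of 11 tested electron donors 8 were lower and 3 higher, with 3 below and 3 above vehicle in all libraries and a median log2 difference of -0.11. Por, the reductase that serves all microsomal P450 enzymes, was at 186, 164 and 177 FPKM on vehicle and 126, 114 and 130 FPKM on D-serine. All of its D-serine libraries were lower (log2 difference -0.51 ± 0.10, limma adjusted p = 0.0630, and 0.0457 with small RNA genes left out). Fdxr, which passes electrons to ferredoxin for the mitochondrial enzymes, lay in the other direction, at 10.7, 13.2 and 10.5 FPKM on vehicle and 16.0, 24.5 and 16.1 FPKM on D-serine (log2 difference 0.65 ± 0.18, limma adjusted p = 0.0904). Cyb5b, an outer mitochondrial cytochrome b5, differed by -0.38 ± 0.14 (limma adjusted p = 0.128), with all D-serine libraries lower.

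Of 10 tested genes of haem synthesis and breakdown 7 were lower and 3 higher, with 4 below and 2 above vehicle in all libraries and a median of -0.15. Those above were Alad and Ppox, an early and a late enzyme of haem synthesis, with log2 differences of 0.18 and 0.25. Alas1, the first and rate-limiting enzyme of haem synthesis, was at 106, 112 and 114 FPKM on vehicle and 80.9, 70.6 and 66.5 FPKM on D-serine. The groups were well apart, with a log2 difference of -0.61 ± 0.10 (limma adjusted p = 0.0583, and 0.0385 with small RNA genes left out). Cpox and Fech, late enzymes of the same pathway, also had all D-serine libraries lower, with differences of -0.75 ± 0.17 and -0.47 ± 0.14 (limma adjusted p = 0.0731 and 0.106).

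Among 15 tested regulators 12 were lower and 3 higher, with 6 below and 2 above vehicle in all libraries and a median of -0.16. Hnf4a, a factor that maintains proximal tubule and liver genes, was at 195, 174 and 172 FPKM on vehicle and 135, 129 and 146 FPKM on D-serine (log2 difference -0.39 ± 0.10, limma adjusted p = 0.0800). Ppara, the receptor behind the known induction of Cyp4a10 and Cyp4a14, was at 24.5, 16.1 and 18.9 FPKM on vehicle and 11.1, 10.6 and 12.9 FPKM on D-serine (log2 difference -0.72 ± 0.16, limma adjusted p = 0.0710). Both receptors were lower in every D-serine library, whereas Nr1i2, the pregnane X receptor that senses foreign compounds, was higher in every one. Nr1i2 stood at 1.55, 1.11 and 1.12 FPKM on vehicle and at 2.91, 2.48 and 4.26 FPKM on D-serine (log2 difference 0.88 ± 0.18, limma adjusted p = 0.0670, and 0.0479 with small RNA genes left out).

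Of 8 tested epoxide and eicosanoid partners 5 were higher and 3 lower, with 2 above and 1 below vehicle in all libraries and a median of 0.14. The epoxide hydrolases differed in direction. Ephx1, the microsomal form that acts on epoxides of foreign compounds, was at 15, 14.6 and 15.1 FPKM on vehicle and 29.1, 25.7 and 21 FPKM on D-serine (log2 difference 0.71 ± 0.13, limma adjusted p = 0.0583, and 0.0385 with small RNA genes left out). Ephx2, the soluble form that breaks down the fatty acid epoxides of Cyp2c and Cyp2j enzymes, was at 405, 492 and 451 FPKM on vehicle and 292, 288 and 350 FPKM on D-serine (log2 difference -0.54 ± 0.12, limma adjusted p = 0.0710). Ptges, a prostaglandin E synthase, was higher in every D-serine library, with a difference of 0.70 ± 0.16 (limma adjusted p = 0.0731).

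The values of the lower P450 genes were set beside those of the marker lists in the same libraries. Relative to the mean log2(FPKM + 1) of the 8 S3 markers, Cyp2j11 stood at 0.27, 0.18 and 0.39 on vehicle and 0.49, 0.32 and 0.24 on D-serine. On that scale the mean difference was 0.07 for Cyp2j11, -0.02 for Cyp2j13 and 0.23 for Cyp2e1, and the groups overlapped for all 3 genes. Cyp2a4 and Cyp51 overlapped as well, with differences of 0.28 and 0.46. Cyp2j5 stood at 2.35, 2.29 and 2.46 on vehicle and 2.94, 2.56 and 2.54 on D-serine, so that on this scale its D-serine libraries were all higher, with a mean difference of 0.31. Cyp4a12a stood at -0.93, -0.69 and 0.17 on vehicle and at -1.04, -1.37 and -1.38 on D-serine, where the groups still did not overlap and the mean difference was -0.78. Cyp4a10, with near-equal FPKM in both groups, was 1.10 higher on the same scale, without overlap. Relative to the S1 and S2 markers the mean differences were -1.45 for Cyp4a12a, -0.61 for Cyp2j11, -0.69 for Cyp2j13, -0.45 for Cyp2e1, -0.39 for Cyp2a4, -0.37 for Cyp2j5 and -0.22 for Cyp51, with no overlap between groups for the first 3 genes and overlap for the rest.

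A list of androgen-responsive kidney genes, chosen without P450 genes, was lower for 7 of 7 tested members, 5 of them below vehicle in all D-serine libraries. The smallest log2 difference of the 7 was -0.05, for Timd2. Of all genes tested, 51.1% were lower and 19.4% lay below vehicle in all D-serine libraries. The mean log2(FPKM + 1) of the list was taken over all 8 genes, among them the untested Slc7a12, at 0.155 to 2.09 FPKM. It was 7.50, 7.74 and 7.26 on vehicle and 6.77, 6.36 and 6.99 on D-serine, and the list shares Acsm3 with the S3 list. Relative to that mean, Cyp2e1 differed by 0.0099, Cyp2j5 by 0.09, Cyp2a4 by 0.07, Cyp2j11 by -0.15, Cyp2j13 by -0.23 and Cyp51 by 0.24 with overlapping groups, and Cyp4a12a by -0.99 without overlap. The part of tubule composition or of androgen response in the P450 values was not tested.

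**Figure D5:**
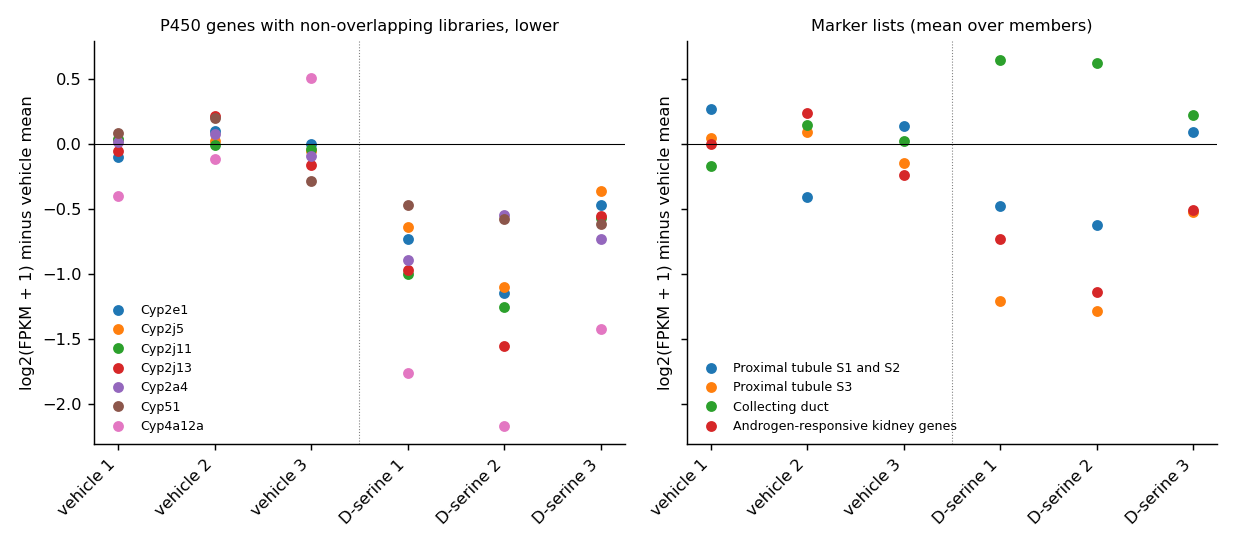
Log2(FPKM + 1) minus the vehicle mean in each of the 6 libraries, for 7 P450 genes with non-overlapping groups (left) and for the mean of 4 marker lists (right). D-serine replicate 3 lay nearest to vehicle for Cyp2e1, Cyp2j5, Cyp2j11, Cyp2j13 and Cyp4a12a, and likewise for the S3 list, at 6.17 against 6.55 to 6.79 on vehicle, whereas Cyp2a4 lay nearest in replicate 2 and Cyp51 in replicate 1.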

How the data were processed

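Libraries were made with a TruSeq stranded mRNA kit from TRIzol-extracted RNA, per the labels' protocols. TopHat2 2.0.13, Bowtie2 2.2.3, SAMtools 0.1.19, Cufflinks 2.2.1 and the build mm10 are named per the submitters' processing notes. Each library has its own table of FPKM values, deposited by the authors. Annotation and strand setting: not given in the sources used here. FPKM divides by the library total, and Cufflinks can list a gene at 0 where its estimate failed.

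Groups came from the labels, and 0 pairs of libraries held identical values. limma 3.58.1 in R 4.3.3 (lmFit, eBayes with trend, two-sided, Benjamini-Hochberg, threshold 0.05) was run on log2(FPKM + 1) for 11737 genes averaging 1 FPKM or more, 3 libraries against 3, and tested on simulated data. A log2 difference on this scale understates the change of low genes. Depth was estimated from the spacing of low values of genes of at least 3000 bases, because the tables hold no counts. Positions came from GENCODE M21 (99 of 101 members), promoters from RefSeq (76 of 101), and coding identity from pairwise alignment with Biopython 1.88. Members and gene lists were chosen with earlier results of these data known. Members named with values are the 10 most abundant, the 8 with the smallest p in each direction and close copies of these, taken here as at least 90% identical in coding bases; other members, and the adrenal and segment markers, were named for their role or position after values were seen. Of each pathway list the 3 genes with the smallest p are named. The alternatives were other pseudocounts, minimums and scalings, weighted libraries, limma without the trend, a replicate block, a fit without small RNA genes, and fits without 1 library each. Summing the near-identical pairs, and leaving out small RNA genes together with each library, were added after seeing the data.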

Additional observations from a re-analysis of the deposited data

How the results depend on the processing

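The number of genes called was 9 of 11737 and depended on the processing, while the direction of Cyp2e1, Cyp2j5, Cyp2j11, Cyp2j13, Cyp2a4, Cyp4a12a and Cyp51 did not under any alternative run. All genes called came to 171 with a pseudocount of 0.1 FPKM, 132 with a minimum mean of 5 FPKM, 15 with median-of-ratios scaling, 83 with equal FPKM sums without the 20 most abundant genes, 269 with weighted libraries, 333 with small RNA genes left out, and 2 to 437 with each library left out in turn. P450 genes called, 0 with the settings of the report, came to 3, 3, 0, 2, 3 and 3 in the same order, to 0 to 7 with each library left out, and to 9 with small RNA genes and D-serine replicate 3 left out together. That last fit called 1109 of 11635 genes in all. With no filter on low values, quantile normalization and limma without the trend, 9, 8 and 6 genes were called, and 0 members in each. The median log2 difference of tested members, -0.11, was 0.031 with no filter on low values, which adds 36 low members, 0.0086 with a minimum of 5 FPKM, and -0.15 to -0.016 with each library left out. With the replicate number as a block, 2 genes and 0 members were called. Same-numbered libraries correlated at -0.070, 0.0031 and 0.067 in their deviations from the group means, so the numbers were not taken as pairs. Directions turned when 1 library was left out for Cyp2d12 (-0.16 to 0.57, negative without vehicle replicate 2), Cyp4a10 (-0.16 to 0.29, negative without vehicle replicate 1 and, at -0.12, without D-serine replicate 3), Cyp4a14 (-0.15 to 1.07, negative without vehicle replicate 1) and Cyp4a31 (-0.31 to 0.050, positive without D-serine replicate 1). Over 16 alternatives, Cyp2a4 ranged from -0.81 to -0.64 and passed in 6, Cyp4a12a from -1.98 to -1.53 and passed in 6, and Cyp2j11 from -1.12 to -0.78 and passed in 5. The cause of these shifts was not tested, and counting error limits members near 1 FPKM most.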

Other observations

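Of the 36 members above 0 but under the level for testing, most overlapped between groups. Cyp4f15 lay below vehicle in all D-serine libraries, and Cyp3a13, Cyp4f41-ps, Cyp2t4 and Cyp4f18 lay above. Of all genes tested, 19.4% lay below and 16.5% above in this way, but those genes average 1 FPKM or more, which these members do not. The share among genes under that level was not computed. Cyp4f15, a family 4 enzyme, was at 0.605, 0.749 and 0.732 FPKM on vehicle and at 0.123, 0.329 and 0.312 FPKM on D-serine, lower in every D-serine library. Cyp3a13, the most abundant Cyp3a gene here, was at 0.385, 0.606 and 0.427 FPKM on vehicle and 1.38, 0.645 and 0.699 FPKM on D-serine, higher in every D-serine library. Cyp26b1, which clears retinoic acid, had the highest single value of any untested member, 1.94 FPKM in D-serine replicate 2, and was at 0.0235, 0.494 and 0.653 FPKM on vehicle and 0.634 and 1.42 FPKM in D-serine replicates 1 and 3. Its groups overlapped. Cyp1a1, an inducible target of the aryl hydrocarbon receptor, overlapped between groups at 0.647 to 0.934 FPKM over the 6 libraries. These genes were chosen after their values were seen, and at this depth each value rests on few fragments.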
